A study of Homo sapiens and Homo sapiens
Mus with 12 samples.

Results

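The transcriptome of cultured UM-UC-3 cells carrying the CDH11 hairpin sh#2 was compared with that of shCtrl cells, gene by gene. UM-UC-3 is an established cell line of advanced bladder cancer (BC), and CDH11 encodes cadherin-11, a calcium-dependent adhesion protein that is typical of mesenchymal cells. Both groups were infected with GIPZ lentiviral particles that carry an shRNA and GFP, and GFP-positive cells were sorted by FACS. The control hairpin is non-silencing (treatment "WT" in the labels), and sh#2 is 1 of the 2 hairpins directed against CDH11 (treatment "CDH11 knockdown"). Each group is thus a sorted pool of infected cells, not a line known to be 1 clone, and all groups carry the virus and GFP. RNA was taken from cells held in plates for 24 h, and the age, passage and oxygen level of the cultures were not stated. The comparison used 6 of the 12 samples of the series, 3 libraries of shCtrl and 3 of sh#2, and 9859 of the 21479 listed genes, which were those with enough counts to be tested. The 3 libraries of the other hairpin, sh#1, entered the same fit. They took part in the count filter, the scaling and the estimate of spread behind the q values, and were used to ask where the hairpins differed.

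A cell senses oxygen through hypoxia-inducible factors (HIFs). In normal oxygen, prolyl hydroxylases of the EGLN family mark HIF-α, and the VHL ubiquitin ligase then sends it for degradation. When HIF-α escapes, it pairs with ARNT, binds short sites with the core letters ACGTG or GCGTG near its targets and raises genes for glucose uptake, glycolysis, glycogen storage, pH control, angiogenesis and mitophagy. Mitochondria make most ATP of a well-oxygenated cell through respiratory complexes whose subunits come from both nuclear DNA and the small circular mitochondrial DNA. Several other inducible programs can be read in RNA in the same way, among them the heat shock response, the NRF2 antioxidant response, NF-kB signaling and the ATF4 response to lack of amino acids.

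Counts on genes ranged from 2292088 to 2434537 per shCtrl library and from 2298359 to 2377198 per sh#2 library. CDH11 (ENSG00000140937, hg38 chr16:64943753-65126112, minus strand) is the targeted gene and was near the limit of detection. With shCtrl its counts were 2, 4 and 4, and with sh#2 they were 1, 2 and 0. These sums of 10 and 3 counts were too low for the test, and no fold is given. Levels of other genes are given below as counts per 1000000 of the TMM-scaled library size (normalized CPM), in the order of replicates 1, 2 and 3, and a gene is "called" where the adjusted p-value (q value) of the edgeR quasi-likelihood test was under 0.05. The labels do not say that the 3 libraries of a group came from separate cultures, so the p-values measure the spread between these libraries, which may be technical. Of the markers used to check the cell line, EPCAM, CDH1 and KRT17 were at 0 in all 6 libraries, while the 8 carcinoma markers together summed to 234.2 to 266.5 normalized CPM in shCtrl and 266.6 to 280.4 in sh#2, and none of the 3 that could be tested was called. Defining markers of fibroblasts (COL1A2, LUM), endothelium (PECAM1, CDH5, KDR, CLDN5) and leukocytes (PTPRC, CD3D, CD3E, MS4A1, LYZ, TYROBP) were at 0 in all 6 libraries. Summed over the list, the 11 fibroblast markers lay at 22.55 to 28.2 CPM in shCtrl and 18.66 to 20.55 in sh#2, the 8 endothelial markers at 13.38 to 17.15 and 18.2 to 22.4, and the 12 leukocyte markers at 30.75 to 36.58 and 55.06 to 73.53. Nearly all of the last sum was CD68, a lysosomal protein that many cell types make, at 34.2, 30.8 and 34.3 CPM in shCtrl and 54.1, 54.5 and 73 CPM in sh#2 (q = 6.59e-07). In RNA of a whole culture, fewer cells with a transcript and less of it per cell cannot be told apart.

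In sh#2 cells 1920 genes (19.5% of those tested) were called higher and 1857 genes (18.8%) lower than in shCtrl cells. The libraries of the 2 groups did not overlap for 1813 of the higher genes and 1726 of the lower ones. Genes are called largely where libraries separate, so these counts are not further evidence, and the share over all genes tested is not given. Most differences were modest, with a median of 1.517-fold among genes called higher (quartiles 1.322 and 1.875) and 1.663-fold lower among genes called lower (quartiles 1.406 and 2.046). Beyond a log2 fold change of 1 there were 410 higher genes (4.16%) and 519 lower genes (5.26%). Further out, 60 higher genes had a log2 fold change from 2 to 3 and 22 of 3 or more, against 35 and 5 lower genes. Summed over genes, those called higher went from 496800 to 740630 normalized CPM and those called lower from 162440 to 100870. The 100 most abundant genes took 39.68% ± 0.346 of counts in shCtrl and 44.04% ± 0.395 in sh#2 (SD, n = 3). Directions therefore depend on the scaling, since TMM sets the bulk of genes to no change (median log2 fold change of all genes tested, -0.006). With library totals in place of TMM, all log2 fold changes shifted by -0.258, and 956 genes were called higher and 3641 lower.

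**Figure D1:**
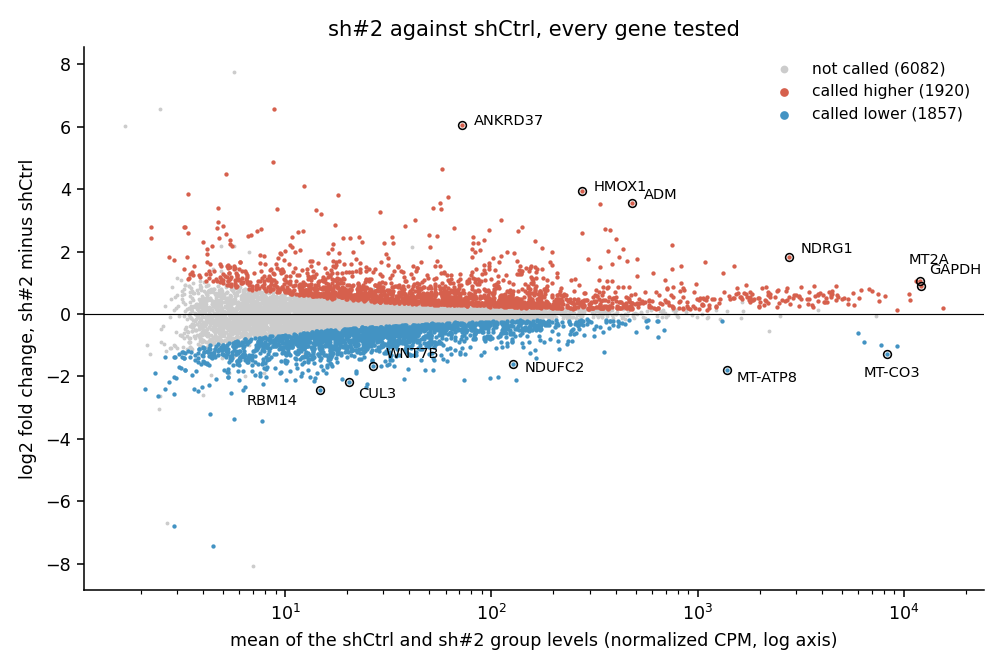
Each point is 1 of the 9859 genes tested, with its mean level in shCtrl and sh#2 (normalized CPM, log axis) against its log2 fold change, and colours mark the 1920 genes called higher and the 1857 called lower. Circled genes are described in the text: ANKRD37, HMOX1 and ADM stand far above the zero line at low to middling levels, GAPDH and MT2A rise at high level, and MT-CO3 and MT-ATP8 lie below it.

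Nearly all listed genes that hypoxia is known to induce were higher in sh#2 cells. The list was written with earlier results of these data known, so its uniformity is not independent evidence. Of 43 listed members that could be tested, 40 were called higher, none was called lower, and their median log2 fold change was 1.78, while 19.5% of all genes were called higher. The summed level of the list went from 5151 to 5491 CPM in shCtrl to 18010 to 18230 CPM in sh#2, and with library totals 39 members were still called higher and 1 lower. With no count filter 46 members were tested, 40 called higher and 1 lower. KDM4B (0.11 on the log2 scale, q = 0.618), ZNF395 (0.08, q = 0.461) and PFKFB3 (-0.27, q = 0.174, the member lower with library totals) were not called, and EGLN3, LOX and TXNIP were below the count filter.

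ANKRD37, an ankyrin repeat protein and a classic HIF target, was at 0.787, 0.82 and 4.57 CPM in the shCtrl libraries and 149, 144 and 135 CPM in the sh#2 libraries. It was near 0 in the control and rose 66.3-fold (log2 fold change 6.05 ± 0.20 (SE), q = 1.87e-29), although the highest shCtrl library held several times the level of the other 2. The shCtrl level of ANKRD37 was too low for the filter, so it was tested only because of its level in knockdown cells. It could hardly be called lower, and its fold rests on very few control counts. BHLHE41 and BHLHE40 encode clock-linked transcription repressors. BHLHE41 rose 25.3-fold, from 3.54, 4.51 and 4.95 to 118, 116 and 100.3 CPM (log2 fold change 4.66 ± 0.17 (SE), q = 7.25e-30). Its shCtrl libraries alone did not reach the filter either. BHLHE40 rose 11.7-fold, from 7.87, 11.1 and 7.62 to 101, 101 and 110.1 CPM (q = 4.77e-27). ADM, which encodes the vasodilator peptide adrenomedullin, was more abundant and rose 11.8-fold, from 68.9, 79.5 and 77.4 to 809.5, 864 and 984 CPM (q = 1.09e-29). HILPDA, an inhibitor of fat breakdown in lipid droplets, rose 11.4-fold, from 58.3, 58.2 and 46.1 to 648, 670.4 and 534 CPM (q = 1.98e-30). The genes above were picked in part for having no overlap between the sh#2 and shCtrl libraries, so that separation is not further evidence. ANGPTL4, a secreted inhibitor of lipoprotein lipase, had tight controls at 94.1, 92.7 and 93.7 CPM and reached 626, 651 and 585 CPM (log2 fold change 2.73 ± 0.07 (SE), q = 1.61e-36). VEGFA, the main angiogenic growth factor, rose 2.95-fold, from 42.5, 48 and 49.2 to 140.4, 148 and 125 CPM (q = 4.41e-19). FAM162A and the thiol oxidase ERO1A rose 4.64-fold and 5.31-fold, and BNIP3 and BNIP3L, receptors of mitophagy, 3.15-fold and 3.42-fold.

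The known binding core of HIF, ACGTG or GCGTG, was searched on both strands in the promoters of these genes, from 250 bases before to 50 after the start, using RefSeq sequences on GRCh38.p14. The stretches shown hold matches of the hypoxia genes with the largest rises, and capitals mark the letters matched. For BHLHE41, BHLHE40 and PPP1R3C, further matches lie in the promoter outside the stretch shown. CACGT and CACGC are the same motifs read on the other strand, so the palindrome CACGTG holds overlapping matches of ACGTG, 1 on each strand. HILPDA has no entry in the table used.
ANKRD37, chr4:185396676-185396705, plus strand: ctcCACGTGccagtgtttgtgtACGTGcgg
BHLHE41, chr12:26125068-26125097, minus strand: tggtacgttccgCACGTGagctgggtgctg
ADM, chr11:10304960-10304989, plus strand: gagcaggagcgcGCGTGgctgaggaaagaa
BHLHE40, chr3:4979263-4979292, plus strand: ACGTGcctggagtcacagggtagaaCACGT
PPP1R3C, chr10:91633203-91633232, minus strand: tgCACGTctcgccccggggcgatCACGTtg

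The whole promoters of ANKRD37 and BHLHE41 held 3 matches each, those of BHLHE40 and PPP1R3C 4 each and that of ADM 1. Such a short motif is common: 48.39% of 27305 promoters in the table had a match, and 65.89% of the 8098 promoters of genes tested. Genes called higher (68.48%) and lower (68.17%) lay near that background. Only 32 of the 43 hypoxia genes had a promoter in the table, so no share is given for them. A match describes the letters and not a bound site.

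**Figure D2:**
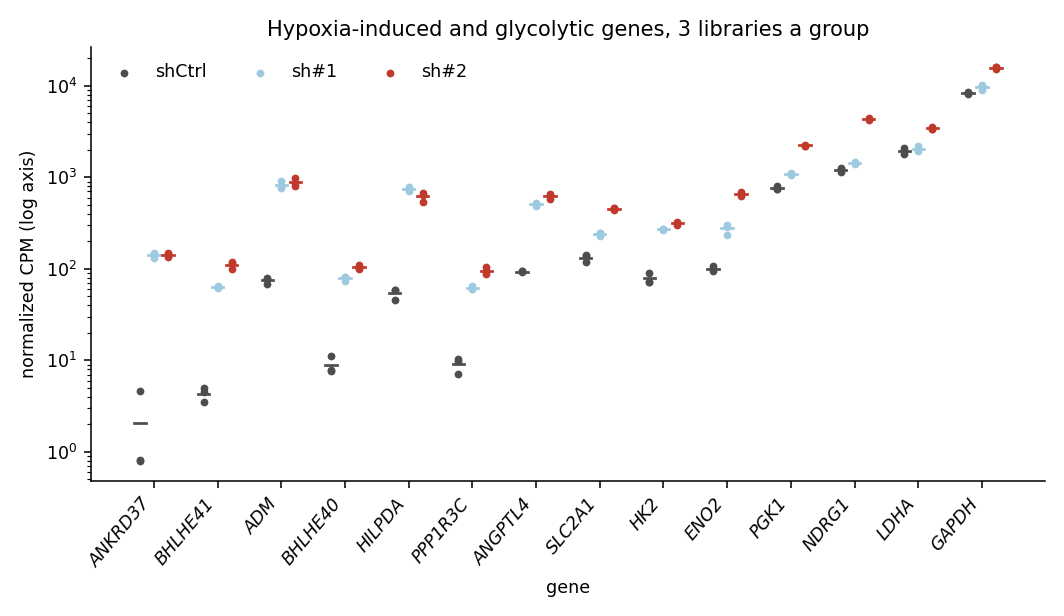
Normalized CPM (log axis) of 14 hypoxia-induced and glycolytic genes, with 1 point per library and a bar at the mean of the 3 libraries of shCtrl, sh#1 and sh#2. ANKRD37 and BHLHE41 climb from a few CPM to over 100, GAPDH and LDHA rise at much higher levels, and sh#1 lies beside sh#2 for ADM but beside shCtrl for NDRG1 and LDHA.

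The oxygen-sensing machinery was called in both directions. Among 10 HIF subunits and regulators tested, 2 were called higher and 2 lower (median log2 fold change 0.12, and -0.14 with library totals), near the 19.5% and 18.8% of all genes. HIF1A, whose protein is controlled by degradation, was at 58.6, 43.9 and 51.4 CPM in shCtrl and 59.3, 49.7 and 65.7 CPM in sh#2, with overlapping libraries and no call (q = 0.283), and its log2 fold change turned to -0.08 with library totals. The higher ones were EGLN1, the main oxygen sensor and itself a HIF target (2.9-fold, q = 2.65e-14), and CITED2, a HIF target that competes for the coactivator CBP and p300 (1.85-fold, q = 8.59e-07). CREBBP, which encodes CBP, was 1.64-fold lower (q = 2.94e-04) and VHL 1.38-fold lower (q = 0.0047).

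RNA of glucose-handling genes rose broadly. Of 33 genes of glycolysis, lactate and pyruvate, 23 were called higher and 1 lower, against 19.5% and 18.8% of all genes. The median log2 fold change was 0.76, and library totals gave 20 higher and 5 lower. These are transcript levels and not flux, and the study saw glycolysis unchanged with both hairpins when it measured extracellular acidification. SLC2A1, the glucose transporter GLUT1, was at 119.7, 141 and 138 CPM in shCtrl and 465, 465 and 437 CPM in sh#2, a 3.43-fold rise (log2 fold change 1.78 ± 0.07 (SE), q = 2.86e-28). ENO2, an enolase, rose from 98.4, 95.5 and 106 to 622, 683 and 659 CPM (q = 9.89e-33). PGK1 went from 748, 754 and 808 to 2198, 2217 and 2267 CPM (2.89-fold, q = 5.7e-30). These enzymes were already abundant, and GAPDH made the third largest gain of all genes in absolute terms, from 8621, 8352 and 8232 to 16023, 15973 and 15303 CPM (1.88-fold, q = 7.96e-21). LDHA, which turns pyruvate into lactate, rose 1.77-fold (q = 9.93e-18), and PDK1, the kinase that shuts pyruvate out of the citric acid cycle, 2.62-fold (q = 1.72e-20). The opposing phosphatase gene PDP2 was the member called lower, at 20.5, 17.2 and 16 CPM in shCtrl and 9.33, 8.6 and 13.6 CPM in sh#2 (q = 0.00602).

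Glycogen genes followed in part, with 11 of 20 called higher and 1 lower (median log2 fold change 0.41), against 19.5% and 18.8% of all genes. PPP1R3C, a scaffold that activates glycogen synthase, rose 10.5-fold, from 7.09, 9.84 and 10.3 to 106, 94.1 and 87.2 CPM (q = 1.48e-25). Glycogen synthase itself, GYS1, rose from 50.8, 56.6 and 51.8 to 224, 192 and 199 CPM (q = 1.51e-24), and the phosphorylase PYGL, which breaks glycogen down, 2.52-fold (q = 1.53e-19). The other phosphorylase, PYGB, was 1.25-fold lower (q = 0.0128), a call lost without shCtrl replicate 3, without sh#2 replicate 1 and with DESeq2. For pH control, 6 of 19 genes were called higher and 2 lower, and the median of 0.11 turned to -0.15 with library totals. Its members CA9 and CA12, surface carbonic anhydrases and HIF targets, rose 3.5-fold (q = 4.74e-13) and 1.8-fold (q = 5.87e-18), and BSG, a chaperone of lactate transporters, 1.61-fold (q = 2.1e-09).

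Stress genes with different known inducers rose beside the hypoxia genes. HMOX1, the heme oxygenase that NRF2 and heme induce, was at 34.2, 33.2 and 32.8 CPM in shCtrl and 565, 515 and 472 CPM in sh#2. This 15.5-fold rise (log2 fold change 3.95 ± 0.09 (SE)) had the smallest q value named here (2.37e-39). HSPA1A and HSPA1B, inducible HSP70 genes, rose 8.1-fold (from 21.6, 30.8 and 21.3 to 191, 191 and 214 CPM) and 13.4-fold (from 7.09, 9.02 and 9.53 to 128, 98.4 and 118 CPM). They are near-identical copies, so reads may be split between them. DNAJB1, their cochaperone, rose 2.41-fold (q = 3.38e-14). Of the 22 chaperones of the list, 11 were called higher and 3 lower, against 19.5% and 18.8% of all genes, and the median of 0.22 turned to -0.04 with library totals. HSPE1, the mitochondrial chaperonin partner, was 1.35-fold lower (q = 3.21e-07). HSPH1, another inducible chaperone, was at 91.7, 82 and 86.9 CPM in shCtrl and 87.7, 76.5 and 90.6 CPM in sh#2 and was not called (q = 0.828), but was called lower with library totals.

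Among 25 genes of KEAP1, NRF2 and antioxidant defense, 10 were called higher and 3 lower, with a median of 0.22 that turned to -0.03 with library totals. The ferritin chains FTH1 and FTL, which store iron and stand with HMOX1 in iron handling, rose 1.8-fold and 1.78-fold from levels over 1000 CPM. CUL3, the cullin scaffold through which KEAP1 degrades NRF2, was 1 of the 12 largest falls, at 34.2, 31.2 and 34.7 CPM in shCtrl and 7, 8.12 and 6.82 CPM in sh#2 (4.54-fold lower, q = 4.76e-12). KEAP1 was 1.45-fold lower (q = 0.0167), a call lost without each of shCtrl replicates 1 and 2 and sh#2 replicates 2 and 3 and with DESeq2. NFE2L2, the gene for NRF2, was at 62.6, 41.4 and 56 CPM and 57.4, 45.4 and 49.2 CPM and was not called with TMM (q = 0.691) but was lower with library totals, and SRXN1, an antioxidant target, was 1.41-fold lower (q = 4.15e-06). Of the 17 cullins and partners in its list, 3 were called higher and 3 lower (median -0.12), near the 19.5% and 18.8% of all genes, and 0 higher and 10 lower with library totals.

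Metallothioneins bind zinc and copper, and 3 of 4 genes of their list, which includes zinc transport, were called higher, also with library totals. The share called higher over all genes was 19.5%. MT2A made the largest absolute gain of any gene in the comparison, from 7096, 8317 and 7951 to 14235, 16577 and 17655 CPM (2.07-fold, q = 2.29e-13). MT1X rose from 93.3, 90.2 and 92.6 to 276, 302 and 299 CPM (q = 4.03e-25) and the zinc exporter SLC30A1 1.73-fold (q = 0.00307). TMSB10, an actin-binding thymosin and the second largest gain, went from 6988, 7739.9 and 7579 to 14996, 15443 and 16114 CPM (q = 9.12e-24).

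Genes of acute signaling were raised as well. In the NF-kB and chemokine list 14 of 19 were called higher and none lower (median log2 fold change 0.94, with 12 higher and 1 lower with library totals). The shares over all genes were 19.5% and 18.8%. CXCL8, the neutrophil chemokine IL-8, was at 2.36, 2.05 and 2.67 CPM in shCtrl and 40.1, 28.7 and 32.6 CPM in sh#2 (14-fold, q = 5.69e-18). Its shCtrl level was too low for the filter, so it was tested only because of its level in knockdown cells and could hardly be called lower. BIRC3, an NF-kB-induced ubiquitin ligase, rose from 33.9, 42.6 and 30.9 to 255, 239.9 and 247 CPM (q = 5.13e-31), and NFKBIA, the inhibitor that NF-kB induces against itself, 2.73-fold (q = 3.28e-21). Of 25 immediate early and MAP kinase response genes, 18 were called higher and 1 lower (median 0.95). DUSP1, a phosphatase of MAP kinases, rose from 22, 35.3 and 30.9 to 139, 142 and 150.0 CPM (q = 6.88e-24) and JUN, an AP-1 subunit, 2.33-fold (q = 4.86e-24), while IER2 was 1.62-fold lower (q = 6.03e-10).

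The ATF4 list had 22 of 35 members called higher and 3 lower (median 0.57, with 17 higher and 7 lower with library totals). Across all genes tested these shares were 19.5% and 18.8%. ATF4 itself rose 1.78-fold, from 247, 293 and 248 to 454, 473 and 475 CPM (q = 1.05e-12). Its targets DDIT3, the transcription factor CHOP, and SESN2, a leucine sensor of the mTORC1 pathway, rose 6.5-fold (q = 4.68e-28) and 3.24-fold (q = 7.67e-16). DDIT4, an inhibitor of mTORC1 that is also in the hypoxia list, went from 64.9, 86.1 and 84.6 to 483, 493 and 444 CPM (q = 2.69e-33). The amino acid transporter SLC7A1 went the other way, from 59, 68.5 and 64.4 to 28.9, 31.5 and 41.4 CPM (1.89-fold lower, q = 1.56e-07), as did ATF5 (2.37-fold lower, q = 3.86e-07) and SLC38A2 (1.21-fold lower, q = 0.00156). The unfolded protein response of the endoplasmic reticulum, with which ATF4 overlaps, had 7 of 24 genes called higher and 1 lower (median 0.10, and -0.16 with library totals).

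**Figure D3:**
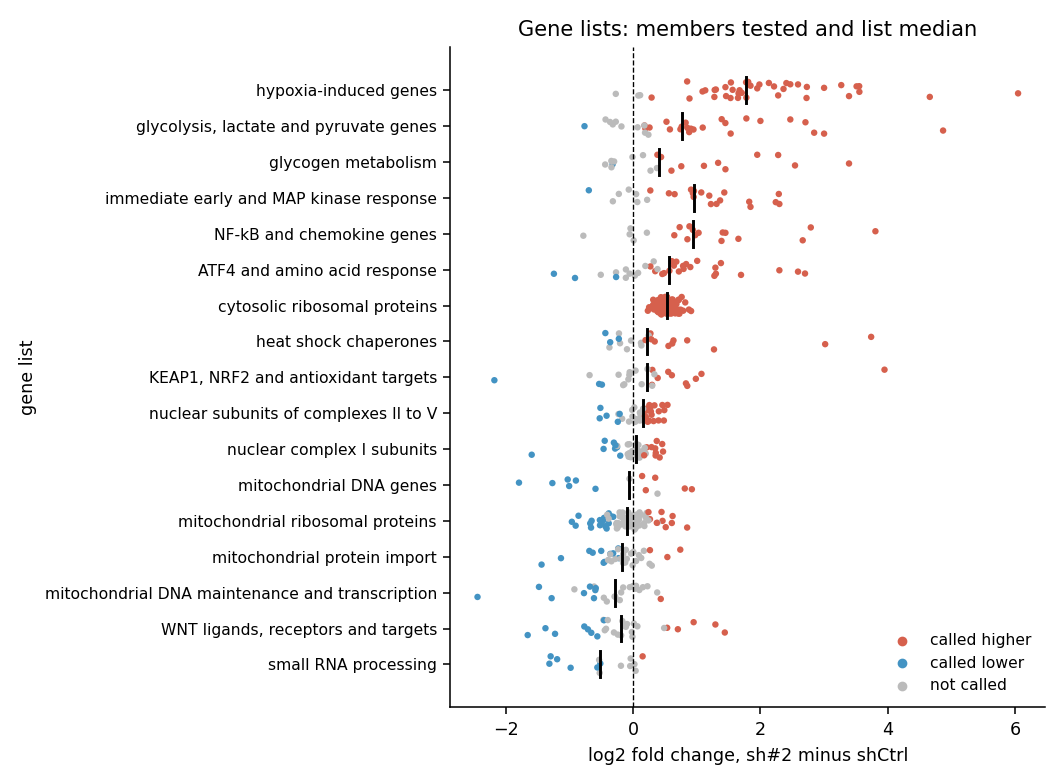
Log2 fold change (sh#2 minus shCtrl) of every tested member of 17 gene lists, coloured by call, with a black bar at the list median. The hypoxia list sits highest (median 1.78), every cytosolic ribosomal protein gene lies above 0 and the small RNA list has a median of -0.52, while the medians of the heat shock, NRF2, complex I and complex II to V lists lie above 0 here and below 0 with library totals.

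Mitochondrial genes changed in both directions. The study measured NDUFC2, TIMM21 and WNT7B by RT-qPCR, and since it chose them on these samples, their values here are not independent evidence. NDUFC2, a subunit of complex I (hg38 chr11:78068297-78079862, minus strand), was at 178, 207 and 188 CPM in shCtrl and 51.3, 73.6 and 64.8 CPM in sh#2. It fell by 1.60 ± 0.10 (SE) on the log2 scale (q = 3.12e-19), the largest change among 37 nuclear complex I genes. Of these, 10 were called higher and 8 lower with a median of 0.05, against 19.5% and 18.8% of all genes, and 2 higher and 18 lower with a median of -0.21 with library totals. The complex I counts were 6 and 5 with DESeq2, 5 genes higher with upper quartile scaling, 6 higher without sh#2 replicate 3, and 5 lower without each of shCtrl replicate 2 and sh#2 replicates 1 and 2. The higher ones were small changes, such as NDUFA1 at 1.38-fold (q = 1.6e-06) and NDUFB4 at 1.37-fold (q = 8.81e-07). NDUFS6 and NDUFB7 were 1.38-fold and 1.36-fold lower (q = 3.06e-07 and 1.36e-05). Among 41 nuclear genes of complexes II to V, 20 were called higher and 5 lower (median 0.16), and 5 higher and 13 lower with library totals (median -0.10). UQCRB, ATP5PO and COX4I1, of complexes III, V and IV, rose 1.4-fold, 1.45-fold and 1.4-fold, and ATP5MC1, UQCRFS1 and CYC1, of complexes V, III and III, were 1.44-fold, 1.43-fold and 1.34-fold lower.

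Protein import and mitochondrial DNA maintenance had more genes called lower than higher. Of 34 protein import genes, 3 were called higher and 11 lower (median -0.18), and 2 and 20 with library totals (median -0.44). TIMM21, which guides proteins into the inner membrane (hg38 chr18:74148523-74160531, plus strand), went from 20.9, 18.5 and 17.9 to 8.87, 6.69 and 5.36 CPM (2.71-fold lower, q = 5.75e-06). PMPCA, part of the protease that trims imported proteins, was 2.2-fold lower (q = 1.28e-06), and TOMM20, the receptor of the outer membrane, 1.67-fold higher (q = 1.27e-11). Among 26 genes of mitochondrial DNA maintenance and transcription, 1 was called higher and 8 lower (median -0.29), 0 and 5 with DESeq2, and 0 and 13 with library totals (median -0.55). PPARGC1B, a coactivator of mitochondrial biogenesis, fell from 13.4, 9.02 and 9.53 to 1.4, 1.91 and 2.43 CPM (q = 8.59e-07). TWNK, the mitochondrial DNA helicase, went from 16.1, 17.2 and 20.2 to 7.47, 6.21 and 8.28 CPM (q = 2.68e-05), and TFAM, which packages the DNA, was 1.5-fold lower (q = 6.31e-05). The 76 mitochondrial ribosomal proteins split into 9 higher and 18 lower (median -0.10), 5 and 12 with DESeq2, and 2 and 47 with library totals (median -0.35). MRPL51 was 1.81-fold lower (q = 6.62e-15). Of 20 citric acid cycle enzymes 4 were called higher and 1 lower, 2 and 6 with library totals, and 2 higher with DESeq2 and without sh#2 replicate 2. For comparison, 19.5% of all genes were called higher and 18.8% lower.

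The 13 protein-coding genes of mitochondrial DNA took 9.361%, 9.231% and 9.245% of counts in shCtrl and 5.761%, 5.794% and 5.929% in sh#2. The means of 9.28% ± 0.0711 and 5.83% ± 0.0888 (SD, n = 3) differed by -3.45 percentage points (sh#2 minus shCtrl) with no overlap, and the exact two-sided permutation p of 0.1 is the smallest that 3 against 3 libraries allow. These genes are transcribed as long precursors that are then cut, yet their differences were unequal. Along the main strand, MT-ND1 and MT-ND2 of complex I were 1.51-fold and 1.87-fold lower, then MT-CO1 of complex IV was 1.9-fold higher (q = 5.36e-21), and MT-CO2 was not called (-0.06 on the log2 scale, q = 0.431) except with library totals, where it was lower. The next 4 genes were all called lower. MT-CO3, the largest loss in absolute terms, fell from 11491, 11932 and 11506 to 4605, 4876 and 4996 CPM (q = 3.5e-27). MT-ATP6 fell from 12128, 12700.0 and 12613 to 5844, 6162 and 6332 CPM (q = 1.71e-23), and MT-ND3 was 2.01-fold lower (q = 1.42e-22). MT-ATP8 showed the largest fold, 3.47 lower (q = 5.81e-04), with 1 shCtrl library apart from the others (2835, 1770.4 and 1860.4 CPM against 711, 590.1 and 561 CPM).

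Of the remaining 5 mitochondrial DNA genes, 4 were called higher with TMM scaling. MT-ND4, the most abundant of them, went from 14681, 14327 and 14262 to 17074, 16170.0 and 16385 CPM (1.15-fold higher, q = 0.00204) and MT-CYB was 1.1-fold higher (q = 0.0364), but with library totals MT-ND4 was -0.06 on the log2 scale and not called, and MT-CYB was -0.12 and called lower. The MT-CYB call was also lost without each of shCtrl replicates 1 and 3 and sh#2 replicates 2 and 3. MT-ND4L was 1.27-fold higher (q = 8.36e-06), a call lost with library totals. MT-ND5 had 1 high shCtrl library (1808, 1250.1 and 1230.1 CPM against 1831, 1868 and 1889 CPM) and was not called (q = 0.0877), but was called higher at 0.59 on the log2 scale without shCtrl replicate 1. MT-ND6, the only one of the 13 on the opposite strand, was 1.75-fold higher (q = 4.22e-16). The directions of MT-ND1, MT-ND2, MT-CO1, MT-ATP8, MT-ATP6, MT-CO3, MT-ND3 and MT-ND6 were the same with library totals. MT-ATP8 overlaps MT-ATP6, and MT-ND4L overlaps MT-ND4, so their reads cannot be fully separated, and nuclear copies of mitochondrial DNA could share reads.

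**Figure D4:**
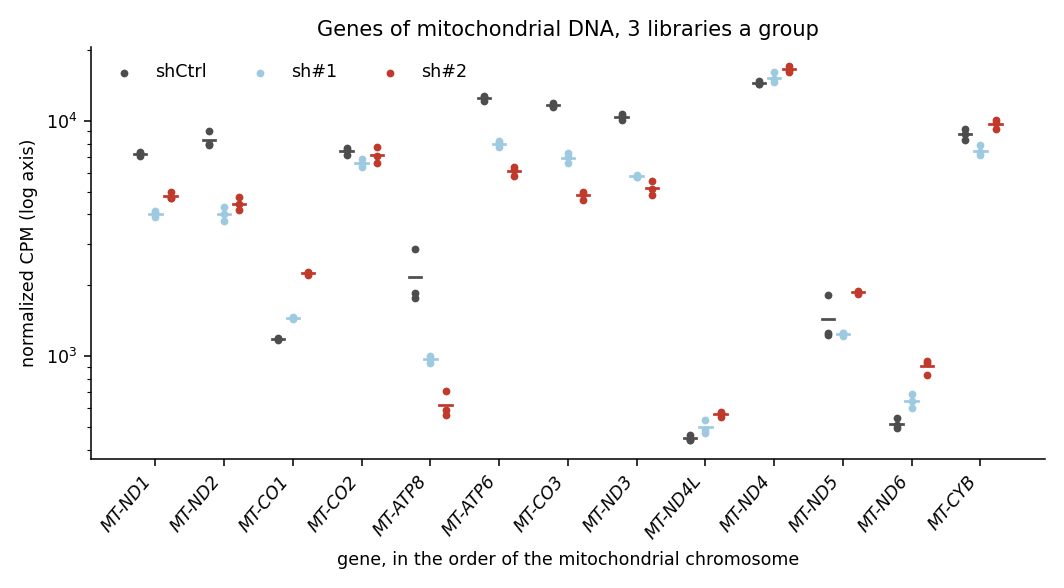
Normalized CPM (log axis) of the 13 mitochondrial DNA genes in chromosome order, with 1 point per library and a bar at the mean of the 3 libraries of each group. MT-ATP8, MT-ATP6, MT-CO3 and MT-ND3 lie lower in sh#2 than in shCtrl and MT-CO1 and MT-ND6 higher, while MT-ND4 and MT-CYB, slightly higher here, were slightly lower with library totals.

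The cytosolic ribosome rose as a whole. All 79 ribosomal protein genes tested were called higher, with a median log2 fold change of 0.53, and 72 of them with library totals (median 0.27). RPS12, RPL11 and RPL13A rose 1.76-fold (q = 3.33e-18), 1.65-fold (q = 1.3e-16) and 1.68-fold (q = 4.55e-16). RPS12 was at 4898, 4991 and 4847 CPM in shCtrl and 8562, 8514 and 8905 CPM in sh#2, and EEF1A1, the elongation factor that carries tRNA to the ribosome, at 7627, 8682 and 8525 and 11909, 12508 and 14176 CPM (q = 1.28e-12). These transcripts are short and abundant, and many have processed copies in the genome that may share reads. Abundance itself went with the direction of change: of 244 genes with a mean of 500 CPM or more, 77.5% were called higher and 6.15% lower, against 7.09% and 13.7% of 621 genes under 5 CPM. The part of abundance in the ribosomal result was not tested.

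**Figure D5:**
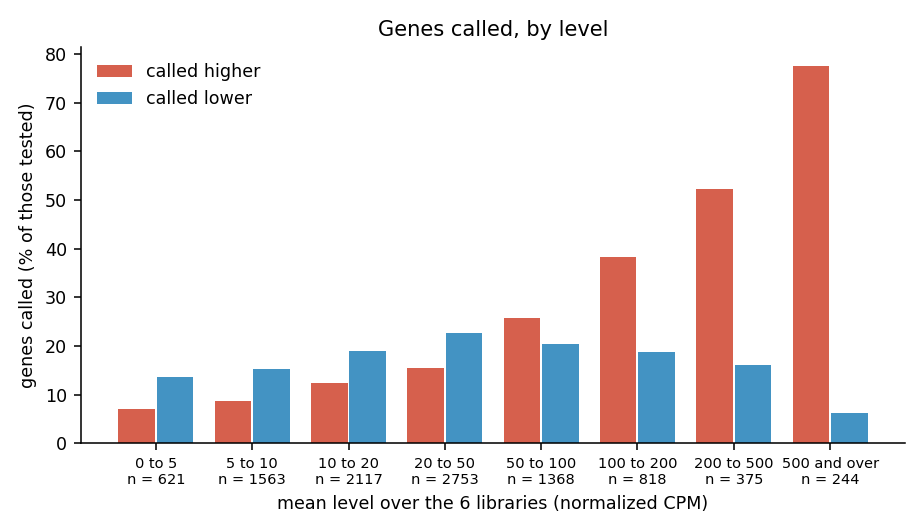
Bars give the percentage of tested genes called higher and lower in sh#2, in 8 classes of mean normalized CPM over the 6 libraries, with the number of genes under each class. The share called higher grows from 7.09% under 5 CPM to 77.5% at 500 CPM and over, and the share called lower is largest from 20 to 50 CPM (22.7%).

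Among the 12 largest falls were genes of several kinds. RBM14, a nuclear RNA-binding coactivator, fell from 20.1, 32.4 and 22.5 to 4.67, 3.82 and 5.36 CPM (log2 fold change -2.42 ± 0.27 (SE), q = 5.19e-11). MIDN fell 5.04-fold, from 32.7, 40.2 and 50.3 to 6.53, 9.56 and 8.28 CPM, and SKP2, the F-box protein that targets the cell cycle inhibitor p27, 4.76-fold, from 40.1, 44.3 and 38.9 to 9.33, 9.08 and 7.3 CPM (q = 1.29e-14). MAT2A, the enzyme that makes S-adenosylmethionine, fell from 214, 202 and 228 to 50.9, 48.7 and 48.2 CPM (q = 2.88e-26). AMD1, which turns S-adenosylmethionine toward polyamines, fell from 128, 118 and 115 to 27.1, 27.7 and 28.2 CPM (q = 1.43e-21). The Polycomb protein gene CBX6 fell 4.13-fold (q = 1.02e-23), and RIOX1, MYO18A, TAF4, BCL9L and FAM217B between 4.24-fold and 4.41-fold.

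Small RNA processing had 6 of 14 genes called lower and 1 higher (median -0.52), against 18.8% and 19.5% of all genes. The median was -0.31 without shCtrl replicate 1, -0.36 without sh#2 replicate 3 and -0.22 with at least 10 counts in every library. TNRC6A, a scaffold of microRNA silencing, went from 60.2, 59.9 and 64.4 to 21.9, 28.2 and 23.9 CPM (2.49-fold lower, q = 2.37e-11), TNRC6C was 2.29-fold lower (q = 1.01e-05) and DICER1, which cuts microRNA precursors, 1.98-fold lower (q = 1.66e-04). RAN, which drives nuclear export, was the higher one (1.11-fold, q = 0.0358), a call lost without each of shCtrl replicates 1 and 3 and sh#2 replicates 1 and 3, and its sign turned with library totals.

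Proliferation genes were called in both directions. Of 45 mitosis genes 10 were called higher and 9 lower (median 0.01), and of 41 DNA replication genes 8 higher and 10 lower (median -0.09), while library totals gave 2 higher and 23 lower, and 4 higher and 21 lower. With TMM these shares lay near the 19.5% called higher and 18.8% called lower of all genes. CDK1, the mitotic kinase, was 1.36-fold higher (q = 3.46e-05), a call lost with library totals. CDC20, an activator of the anaphase ligase, was 1.51-fold lower (q = 1.09e-09). PCNA, the replication clamp, fell from 199, 196 and 200.1 to 119.9, 102 and 94.5 CPM (q = 5.81e-13), and RRM2, which makes deoxynucleotides, rose from 91.3, 121 and 111 to 212, 183 and 186 CPM (q = 1.46e-11). The 16 p53 targets split into 5 higher and 5 lower, the latter 3 with DESeq2 and without each of shCtrl replicate 2 and sh#2 replicate 2, with CDKN1A, the inhibitor p21, 1.76-fold higher (q = 8.83e-07) and MDM2, the ligase of p53, 1.95-fold lower (q = 8.82e-06).

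Most genes of the family of the target were not called, as was so for 6082 of all 9859 genes tested (19.5% were called higher and 18.8% lower). Of 15 cadherins and catenins tested 2 were called higher, 1 lower and 12 neither (median -0.11, with 1 higher and 9 lower with library totals), and 19 more were below the count filter. CDH2, N-cadherin, was at 41.7, 40.6 and 37.7 CPM in shCtrl and 36.4, 32.5 and 32.6 CPM in sh#2 (q = 0.19) and was called lower only with library totals. CTNNA1, α-catenin, was 1.37-fold higher (q = 1.45e-06), and protocadherin gene PCDH7 1.97-fold lower (q = 0.0044). Among 16 integrins and partners 3 were called higher and 2 lower (2 and 7 with library totals), with ITGB3 rising from 5.51, 7.38 and 6.1 to 19.1, 20.5 and 22.4 CPM (q = 6.67e-08). Of 31 mesenchymal transition and matrix genes 11 were called higher and 2 lower (median 0.36), and 8 and 5 with library totals (median 0.10), and the median was 0.22 without sh#2 replicate 3. CCN1 and CCN2, matricellular proteins, rose 4.21-fold (q = 1.7e-31) and 2.59-fold (q = 5.56e-19), and SPARC was 1.67-fold lower (q = 7.44e-06). VIM, vimentin, rose from 2139.8, 2262 and 2309 to 3977, 3931 and 4331 CPM (q = 1.91e-19), while in the filament list 1 of 11 genes was called higher and 4 lower. Among 9 coagulation and protease receptor genes 5 were called higher and 1 lower, including PLAUR, the urokinase receptor (3.06-fold higher, q = 1.13e-26).

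Of 29 WNT genes 5 were called higher and 8 lower (median -0.19), 5 and 5 with DESeq2 and 4 and 13 with library totals, and the median was -0.10 without sh#2 replicate 3. Over all genes tested, 19.5% were called higher and 18.8% lower. WNT7B, a ligand that the study picked, was at 43.7, 38.5 and 40 CPM in shCtrl and 13.1, 17.2 and 8.28 CPM in sh#2 (3.16-fold lower, q = 9.85e-11). BCL9L, a β-catenin coactivator, was named above among the largest falls, at 50, 68.9 and 64.4 and 10.3, 16.7 and 16.1 CPM, whereas MYC, a target, rose 1.93-fold (q = 9.11e-11). Of 23 receptor tyrosine kinases and ligands 5 were called higher and 3 lower (3 and 9 with library totals, and 3 higher with DESeq2 and without shCtrl replicate 2), with the ligands IGF2 and HBEGF 2.17-fold and 2.22-fold higher and ERBB2 2.05-fold lower (q = 3.42e-14, 2.18e-09 and 0.00301). Of 30 bladder cancer subtype markers with counts, 26 were below the count filter and only 4 were tested, of which 3 were called higher. CD44, a basal marker, was 1.35-fold higher (q = 9.12e-08). L1CAM, a neural adhesion molecule, went from 20.1, 20.1 and 24.8 to 64.4, 66.4 and 76.9 CPM (q = 3.99e-14). UPK1A, a urothelial plaque protein, stayed under 10 CPM (0.394, 0 and 1.91 against 9.33, 7.64 and 9.25 CPM, q = 7.41e-07). Its shCtrl level was too low for the filter, so it was tested only because of its level in knockdown cells and could hardly be called lower.

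Antigen presentation by MHC class I had 7 of 18 genes called higher and 1 lower (median 0.30, with 4 higher and 1 lower with library totals). By comparison, 19.5% of all genes were called higher and 18.8% lower. HLA-B rose 2.08-fold (q = 6.23e-10) and HLA-C 1.54-fold (q = 9.34e-10), and these polymorphic genes may share reads. The peptide transporter gene TAP2 was 1.91-fold lower (q = 1.46e-06), and the immunoproteasome gene PSMB8 was at 5.51, 12.7 and 11.8 and 9.33, 12.9 and 6.82 CPM and not called (q = 0.922). Of 22 interferon-stimulated genes 2 were called higher and 1 lower (median -0.10), and 2 and 7 with library totals.

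Lipid genes were called in both directions. Of 21 genes of fatty acid synthesis and lipid droplets 6 were called higher and 7 lower, against 19.5% and 18.8% of all genes. PLIN2, which coats lipid droplets, rose from 36.2, 32.4 and 41.5 to 227, 240.3 and 229 CPM (q = 7.88e-30), and the desaturase SCD 1.62-fold (q = 1.32e-13). FASN, fatty acid synthase, ELOVL6, an elongase, and SREBF1, their transcription factor, were 1.62-fold, 3.19-fold and 1.84-fold lower (q = 2.68e-08, 7.45e-12 and 9.46e-07). Among 24 cholesterol genes 10 were called higher and 5 lower, and 2 higher and 9 lower with library totals. The number called higher was 5 without sh#2 replicate 2 and 6 without shCtrl replicate 1 and with DESeq2. INSIG1, which restrains synthesis, was 1.52-fold higher (q = 1.29e-06).

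In the remaining lists, 9 of 31 proteasome genes were called higher and 6 lower (2 and 15 with library totals), 3 of 21 death receptor and caspase genes higher and 7 lower, and 6 of 18 BCL2 family genes higher and 1 lower (5 and 5). Among all genes tested 19.5% were called higher and 18.8% lower. Of 14 clock genes 6 were called higher and 1 lower, BHLHE40 and BHLHE41 among them, and of 21 histone lysine demethylases 7 higher and 3 lower (5 and 7 with library totals). KDM3A, a demethylase and HIF target, rose from 51.6, 47.2 and 56.8 to 179, 162 and 156 CPM (q = 4.48e-21). The lists share some members, so their counts are not independent.

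The direct test of sh#2 against sh#1 called 24.7% of genes, 1331 higher and 1100 lower. Of the 1920 genes called higher in sh#2 against shCtrl, 1006 (52.4%) also differed from sh#1, and 978 of these lay further from shCtrl in sh#2. Of the 1857 called lower, 752 (40.5%) differed, 737 of them further from shCtrl in sh#2. Both hairpins were compared with the same shCtrl libraries, so their calls are not independent. In the hypoxia list 27 genes were higher in sh#2 than in sh#1 and 5 lower. ANKRD37 was at 133, 148 and 144 CPM in sh#1 and did not pass the test of the hairpins (sh#2 minus sh#1 log2 fold change 0.01 ± 0.10 (SE), q = 0.942), nor did ADM (0.12 ± 0.07 (SE), q = 0.223). HILPDA was lower in sh#2 than in sh#1, at 742, 785 and 715 CPM there (-0.27 ± 0.07 (SE), q = 0.00248). By contrast NDRG1, a differentiation and stress gene, was at 1146, 1269 and 1223 CPM in shCtrl, 1461, 1437 and 1399 CPM in sh#1 and 4241, 4448 and 4365 CPM in sh#2 (sh#2 minus sh#1 1.60 ± 0.06 (SE), q = 1.54e-30). FAM162A (1.41), ERO1A (1.35), GYS1 (1.62) and CA9 (1.34) were likewise higher in sh#2 than in sh#1 on the log2 scale, with q values between 4.43e-27 and 2.39e-09.

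The genes most raised in sh#2 relative to sh#1 were HMOX1, H1-5, HSPA1B, H1-4 and L1CAM. HMOX1 was at 59.9, 63.5 and 55.7 CPM in sh#1, against 565, 515 and 472 CPM in sh#2, a difference of 3.12 on the log2 scale (q = 3.98e-36). H1-5 and H1-4 encode replication-dependent linker histones and were at 24.3, 25.3 and 27.3 and 22.4, 29.6 and 28.7 CPM in sh#2 against 4.1, 5.22 and 3.88 and 6.97, 5.22 and 5.28 CPM in sh#1 (q = 1.59e-11 and 1.05e-09). H1-5 passed the count filter only through its sh#2 libraries, so the filter favoured a high sh#2 level. HSPA1B was at 18.4, 23.5 and 28.5 CPM in sh#1 (q = 4.54e-20) and L1CAM at 12.7, 13.5 and 19 CPM (q = 9.05e-17). The most reduced were NR2F1, an orphan nuclear receptor, ZNF714, MED22, SKP2 and TAF4. NR2F1 was at 16.1, 16.8 and 19.1 CPM in shCtrl, 19.7, 20.9 and 20.8 CPM in sh#1 and 6.07, 7.64 and 5.36 CPM in sh#2 (sh#2 minus sh#1 -1.68 ± 0.24 (SE), q = 2.49e-07), and ZNF714 and MED22, a Mediator subunit, were not called in sh#1 against shCtrl (q = 0.695 and 0.961) and were lower in sh#2 than in sh#1 (q = 4.18e-05 and 9.62e-06).

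By list, 77 of 79 cytosolic ribosomal protein genes were higher in sh#2 than in sh#1 and none lower (27 and 0 with library totals), as were 19 and 1 of 33 glycolysis genes, 14 and 2 of 31 mesenchymal and matrix genes, 10 and 1 of 18 MHC class I genes, and 11 and 0 of 24 unfolded protein response genes. Several mitochondrial lists had more genes below sh#1 than above it, with 2 of 76 mitochondrial ribosomal protein genes higher and 27 lower, 0 and 10 of 34 import genes, and 4 and 12 of 37 complex I genes, while complexes II to V had 6 and 8 of 41, and the mitochondrial DNA genes 6 and 3 of 13 (median 0.15, and 3 and 4 with a median of -0.04 with library totals). The immediate early list (1 and 7 of 25) and the ATF4 list (5 and 10 of 35) also had more members below sh#1 than above it. With library totals the sign of the median difference was kept by these lists except the mitochondrial DNA genes. NDUFC2 was at 107, 108 and 92.3 CPM in sh#1, and its sh#2 minus sh#1 log2 fold change was -0.70 (q = 1.78e-06), and TIMM21 and WNT7B did not pass this test (q = 0.122 and 0.098). CUL3, at 5.33, 10.4 and 9.16 CPM in sh#1, did not either (sh#2 minus sh#1 -0.18 ± 0.29 (SE), q = 0.696).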

How the data were processed

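The analysis covers RNA-seq libraries of UM-UC-3 in culture, 3 each of shCtrl, sh#1 and sh#2, grouped by their titles. Per the labels, single reads of 75 bp came from a NextSeq 500. The authors trimmed them in CLC Genomics Workbench, mapped them to hg38 with RaNAseq and deposited raw counts per gene. The counting program, annotation version and use of strand are not given in the sources used here, so overlapping, antisense and near-identical genes are uncertain. A few genes are not reported here.

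The counts were tested with edgeR 4.0.16 in R 4.3.3 (filterByExpr, TMM scaling, robust quasi-likelihood fit of 3 groups over 9 libraries, Benjamini-Hochberg adjustment over all 9859 genes tested). The same fit gave sh#2 against sh#1. Gene positions are from GENCODE v44 on hg38, which held 9759 of these genes. On simulated counts for sh#2 against shCtrl, 200 of 9859 genes were changed. The fit recovered 53.7% of 1.5-fold, 92.5% of 2-fold and 98.5% of 4-fold changes, with 4.68% of calls false. In the data 3777 genes were called, so the simulation could not test the scaling where many genes change. Recovery was not split by gene level, so these shares do not describe genes of low level. Totals of 2292088 counts or more in the 6 libraries limit genes of low level. In all 9 pairs of replicates the counts of the genes varied beyond sampling noise, so each library counted as 1 sample.

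The gene lists and members were chosen with earlier results of these data known. Counts of members called in any list are to be read against the 19.5% called higher and 18.8% called lower of all genes tested. Genes named were CDH11, the 3 genes measured by RT-qPCR, the 12 largest rises and 12 largest falls among called genes with a mean of 20 counts and no overlap, the 5 largest gains and losses in normalized CPM, the 5 highest and 5 lowest against sh#1, up to 3 members per direction of each list with the smallest q values, and members that make a list readable. Alternatives were DESeq2 1.42.0, other scalings and filters, the 6 libraries alone, a replicate block, mitochondrial DNA genes left out and each shCtrl or sh#2 library left out. Leaving out each sh#1 library, for sh#2 against sh#1 alone, was added after seeing the data.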

Additional observations from a re-analysis of the deposited data

Results flagged for a closer look

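Some genes were called against shCtrl in opposite directions with the 2 hairpins and also differed in the direct test of sh#2 against sh#1. There were 62 such genes, and both comparisons share the shCtrl libraries. The 11 with a log2 fold change beyond 0.5 in both comparisons and a mean of 20 counts or more are given here with their sh#2 minus sh#1 log2 fold change.

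Most of them were higher in sh#2 and lower in sh#1 than in shCtrl, and several encode surface proteins. L1CAM, a neural adhesion molecule, was at 12.7, 13.5 and 19 CPM in sh#1 and 64.4, 66.4 and 76.9 CPM in sh#2, a difference of 2.18 (edgeR q = 9.05e-17). CD82, a tetraspanin, was at 7.38, 12.2 and 10.9 and 44.3, 41.6 and 43.3 CPM, a difference of 2.08. BDKRB1, the bradykinin B1 receptor, was at 11.9, 11.3 and 8.81 and 37.8, 44.4 and 39.9 CPM, a difference of 1.94. In these 3 genes the hairpins lay on either side of the shCtrl libraries. DNAJB1, the HSP70 cochaperone, differed by 1.83 between the hairpins, TRAPPC6A by 1.69 and the calcium channel gene CACNA1A by 1.61. TGFBI, a matrix protein, differed by 1.43, the endocytic receptor gene LRP1 by 1.31, FNDC3B by 1.25 and the transcription repressor gene ZBTB20 by 1.16. VGF, a secreted neuropeptide precursor, was the only one of the 11 that went the other way, at 228, 220.4 and 233 CPM in sh#1 and 94.7, 98.4 and 111 CPM in sh#2, a difference of -1.17 (edgeR q = 9.05e-17).

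The rise against shCtrl was not called for LRP1 without shCtrl replicate 1 or sh#2 replicate 2 or 3, for TRAPPC6A without shCtrl replicate 1 or 2 or sh#2 replicate 2 or 3, or for ZBTB20 without shCtrl replicate 2 or sh#2 replicate 3. With library totals it was not called for CACNA1A, FNDC3B, LRP1, TRAPPC6A or ZBTB20, with DESeq2 not for the last 4 of these, and with upper quartile scaling not for TRAPPC6A.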

How the results depend on the processing

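The counts of genes called higher (main value 1920) and lower (1857) stayed within 1.5 times under DESeq2, upper quartile scaling, both filters, the 6 libraries alone and with mitochondrial DNA genes left out. Library totals without a scaling factor moved them to 956 and 3641, those beyond a log2 fold change of 1 to 253 and 1004, and those of sh#2 against sh#1 to 637 and 2509. Requiring 10 counts in every library left 8301 genes and 262 higher and 304 lower calls beyond 1, and DESeq2 called 635 genes lower in sh#2 than in sh#1, where the cause was not tested. Leaving out 1 shCtrl or sh#2 library at a time gave 1670 to 1767 higher and 1547 to 1686 lower calls, 405 to 441 and 494 to 546 beyond 1, and 1062 to 1400 and 857 to 1160 for sh#2 against sh#1. Leaving out 1 sh#1 library, chosen after seeing the data, gave 1118 to 1155 and 859 to 922 for that comparison. The difference in the mitochondrial DNA share was -3.5 to -3.41 percentage points with 1 library left out, and -2.14 (exact two-sided permutation p = 0.1) as a share of the TMM-scaled library size. The replicate numbers did not pair the libraries (correlations of same-number deviations of -0.004 to 0.054), and the fit with the replicate block called 1947 higher and 1882 lower, 1907 and 1832 of them shared with the fit without it. Log2 fold changes that changed sign with library totals were those of CUL4B (-0.017), HIF1A (-0.080), ITGB1 (-0.12), KDM4B (-0.15), MT-CYB (-0.12), MT-ND4 (-0.061), RAN (-0.11) and ZNF395 (-0.18). The uncalled values of HSPH1 (-0.078 to 0.040), KDM4B (-0.021 to 0.32), NFE2L2 (-0.23 to 0.052) and PSMB8 (-0.34 to 0.16) took either sign with 1 library left out. Across the named genes and alternatives, 3351 values kept direction and call, 131 lost the call and 8 gained it. Depth limits changes under 2-fold in genes of low level.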

Other observations

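Histone genes, chosen after their values were seen, divided by kind. Of 55 replication-dependent cluster histone genes with 10 or more counts over the 9 libraries, 14 passed the filter on low counts. Of these, 11 were called higher in sh#2 than in shCtrl and 0 lower, with 9 above sh#1, while 19.5% of all genes were called higher. H2BC7, H2AC11, H4C12, H1-5 and H2AC20 passed the filter only through their sh#2 libraries. Such genes could hardly be called lower, so the filter itself shaped these counts. Summed over these genes, shCtrl had 1135, 832 and 782 counts, sh#1 had 871, 750 and 893, and sh#2 had 1236, 1193 and 1017. As raw counts, not scaled for library size, the sh#2 sums overlapped with those of shCtrl, where replicate 1 was high. H4C3, which was not called (edgeR q = 0.189), held 710, 558 and 509 of the shCtrl counts and 448, 397 and 269 of the sh#2 counts. The sums therefore do not stand for the called genes. H4C12 had 5, 4 and 0 counts in shCtrl, 0, 0 and 0 in sh#1, and 17, 17 and 21 in sh#2. Of 10 other histone genes tested, many of them made outside replication with poly(A) tails, 3 were called higher and 5 lower. H2AX, the variant phosphorylated at DNA breaks, fell from 83.4, 96.8 and 90.7 to 36.9, 30.6 and 27.8 CPM (edgeR q = 1.13e-14). Whether RNA was selected by its poly(A) tail is not given in the sources used here, and its part in the values of cluster histone genes was not tested.

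Transcript length, from the canonical transcripts of protein-coding nuclear genes in GENCODE v44, moved with the direction of change. Of 564 tested genes with a transcript under 1000 nt, 39.7% were called higher and 11.2% lower (median log2 fold change 0.17), against 14.9% and 24.5% of 1894 genes of 6000 nt or more (median -0.10). The median length was 2812 nt in genes called higher and 3994 nt in genes called lower. The ribosomal protein genes are among the short ones, and the part of length in their values was not tested.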
